A study of Homo sapiens with 3 samples.

Results

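The genes described here are 10 genes of the cell's defence against foreign nucleic acid: 3 RIG-I-like receptors (DDX58, IFIH1 and DHX58), the endosomal receptor TLR3, the kinase EIF2AK2, the adaptors MAVS and TMEM173, the kinase TBK1 and the transcription factors IRF3 and IRF7. They were chosen by symbol from a list of names, and each of the 10 had its own row among the 58735 genes of the count table. The cells were RPE-1, a telomerase-immortalised human retinal pigment epithelial line, in a derivative with GFP on the centriole protein Cetn2 and with PLK4 placed behind an rtTA-driven, doxycycline-responsive promoter. All 3 libraries belonged to 1 group, labelled siControl_no_induction: the cells had been given a scramble small interfering RNA with the lipid reagent RNAiMAX, and PLK4 had not been induced. The series concerns the RNA-binding protein Unkempt in centriole overduplication. Every library therefore came from cells into which a short RNA duplex had been carried by lipid. No untransfected cells were analysed here, so a basal level of these genes and an effect of the transfection cannot be told apart. The labels give no separate cultures and do not say whether the line is 1 clone. Differences between the 3 libraries thus measure only the spread of these samples, which may be technical.

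Cells recognise viral or misplaced nucleic acid by where it lies and how it is built. The helicases RIG-I (gene DDX58) and MDA5 (gene IFIH1) bind RNA duplexes in the cytosol and signal through MAVS on the mitochondrial surface, while TLR3 binds such duplexes in endosomes and signals through TICAM1. Cytosolic DNA is detected by CGAS, whose cyclic dinucleotide product activates STING (gene TMEM173). These routes meet at TBK1, which phosphorylates IRF3 and IRF7 and so switches on interferon genes. PKR (gene EIF2AK2) acts apart from them: on binding RNA duplexes it phosphorylates the initiation factor eIF2alpha and slows translation. Several of the genes, among them DDX58, IFIH1, DHX58, TLR3, IRF7 and EIF2AK2, are known to be induced by interferon themselves.

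The libraries held between 46625774 and 60040029 counts. Values are given as CPM, counts relative to TMM-scaled library size, and as RPKM, CPM per kilobase of the union of a gene's exons, which allows levels of different genes to be compared. A gene was called detected when it had a CPM of at least 1 in each library, as 57.7% of protein-coding genes did. Library 1 stood apart from the others over the whole transcriptome: the common biological coefficient of variation was 0.135 over 3 libraries and 0.0603 without library 1. Of 8 markers listed for the cells 7 were detected, led by VIM (1518 ± 64.2 RPKM, SD, n = 3) and KRT8 (92.2 ± 13.2 RPKM) with TERT lowest (1.49 ± 0.414 RPKM). KRT18, OTX2, MITF and CDH2, also on the list, are not reported here, so these values do not settle the identity of the cells. The visual cycle enzyme RPE65, a defining marker of mature pigment epithelium, had 8, 6 and 0 counts.

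All 10 genes were detected, and per unit of exon length they fell into a higher set of 6 and a lower set of 4. The higher set ran from TMEM173 at 25.4 ± 1.59 RPKM (SD, n = 3) down to IRF3 at 9.42 ± 0.330 RPKM. The lower set held TLR3, IRF7, DHX58 and IFIH1, from 2.84 ± 0.442 down to 1.59 ± 0.183 RPKM. The step between the sets was 3.35-fold (log2 ratio of IRF3 to TLR3 1.74 ± 0.19, SD), and the libraries of these neighbours did not overlap. This log2 ratio was 0.91 without length and 2.69 with the principal transcript. In CPM the widest step lay instead between TLR3 (19.1) and IFIH1 (8.11), so the place of TLR3 in the lower set depended on the length correction. The median over the 10 genes was 9.56 RPKM, beside 6.09 RPKM over the 11508 detected protein-coding genes. The 6 higher genes stood between the 62.5 and 86.4 percentiles of those genes and the 4 lower ones between 17.9 and 29.03. In these bulk samples, fewer cells that express a gene and less RNA per cell cannot be told apart.

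**Figure D1:**
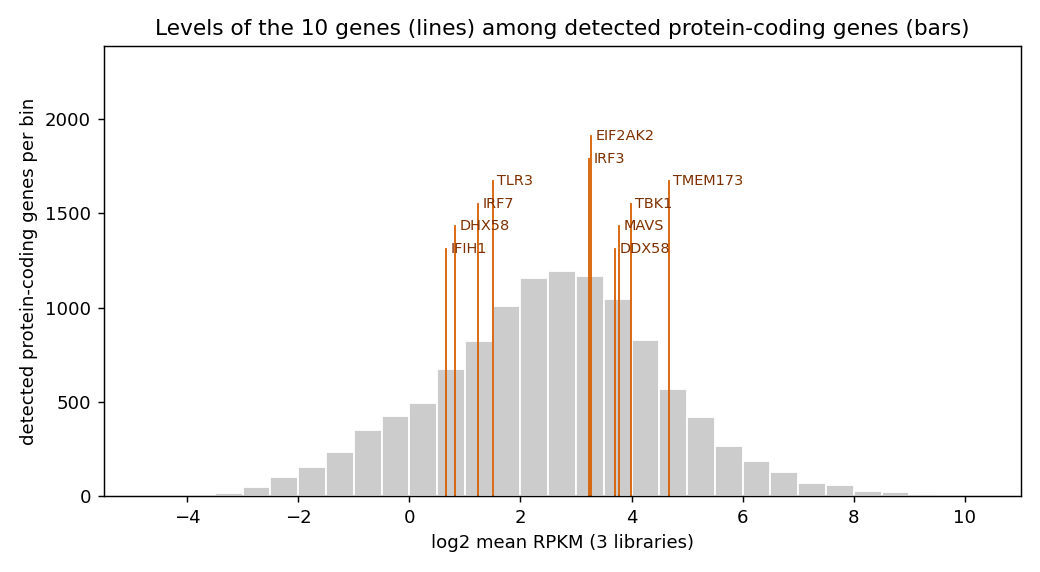
Mean level of each of the 10 genes over 3 libraries (orange lines, log2 RPKM on the horizontal axis) on the distribution of all detected protein-coding genes (grey bars, genes per bin of 0.5 log2 units). IFIH1, DHX58, IRF7 and TLR3 lie on the lower side of the distribution, left of its peak, and TMEM173 (25.4 RPKM) is the farthest to the right of the 10 genes.

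The RIG-I-like receptors were expressed unequally, with DDX58 far above its relatives. DDX58 (ENSG00000107201, chromosome 9, 32455705 to 32526324, hg38, minus strand), which encodes the receptor for short RNA ends with a triphosphate, had 2478, 3613 and 2821 counts, or 51.1, 59.5 and 60.3 CPM, in libraries 1, 2 and 3. Library 1 was the low one, and libraries 2 and 3 were nearly equal. IFIH1 (ENSG00000115267, chromosome 2, 162267079 to 162318703, minus strand), the receptor for long RNA duplexes, had 345, 544 and 387 counts, or 7.11, 8.95 and 8.27 CPM. DHX58 (ENSG00000108771, chromosome 17, 42101404 to 42112733, minus strand) encodes LGP2, which lacks the signalling domains of the other receptors and modulates them. It had 318, 449 and 305 counts, or 6.55, 7.39 and 6.52 CPM, with library 2 highest and libraries 1 and 3 level.

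Per unit of exon length DDX58 exceeded IFIH1 8.24-fold (log2 ratio 3.04 ± 0.07, SD) and DHX58 7.35-fold (2.88 ± 0.13), each in 3 of 3 libraries. With 3 libraries the two-sided exact sign-flip test can give no p below 0.25, and both pairs gave 0.25 (0.292 adjusted over 14 pairs). Of the 14 pairs 12 gave this value, MAVS to TICAM1 gave an exact p of 0.5 and EIF2AK2 to EIF2AK4 an exact p of 1. The ratios shrank with the length of the longest transcript in place of all exons, to 2.54 and 2.32 on the log2 scale, but DDX58 remained the highest of the 3 genes. IFIH1 and DHX58, at 1.59 and 1.77 RPKM, could not be ordered firmly. DHX58 was 1.12-fold higher per unit of length in 3 of 3 libraries, the libraries of both genes overlapped, and without length the log2 ratio of IFIH1 to DHX58 was 0.25 in place of -0.16.

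**Figure D2:**
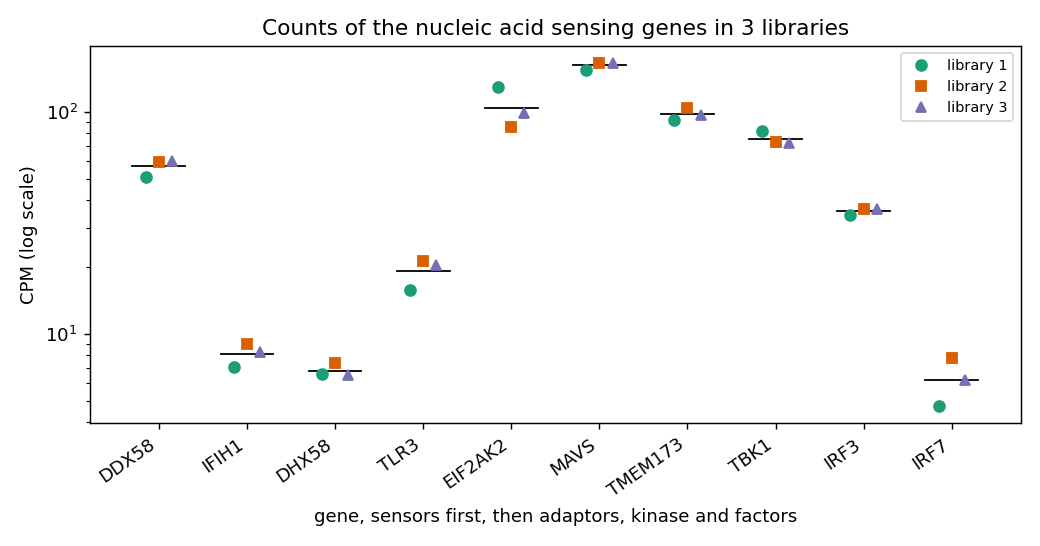
CPM (log axis) of each of the 10 genes in libraries 1, 2 and 3, with a bar at the mean. DDX58 lies between 51.1 and 60.3 CPM, well above IFIH1 and DHX58, and EIF2AK2 and IRF7 show the widest vertical spread.

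TLR3 (ENSG00000164342, chromosome 4, 186069152 to 186088069, plus strand), the endosomal receptor for RNA duplexes, had 762, 1291 and 950 counts, or 15.7, 21.3 and 20.3 CPM. Library 1 was again low and the others close together. At 2.84 ± 0.442 RPKM (SD, n = 3) TLR3 stood 4.63-fold below DDX58 (log2 ratio -2.21 ± 0.11, lower in 3 of 3 libraries, exact sign-flip p = 0.25). It also stood 4.37-fold below its adaptor TICAM1 (12.4 ± 1.67 RPKM), with log2 ratios of -2.61, -1.91 and -1.86 in the 3 libraries. Without length the ratio to TICAM1 was -0.80 on the log2 scale. The other nucleic acid receptors of endosomes, TLR7, TLR8 and TLR9, had 0 counts in each library, which allows at most 0.0618, 0.0494 and 0.0641 CPM, although a further gene on the same strand covers 86.3% of the exons of TLR9. TLR4, the receptor for lipopolysaccharide, was the Toll-like receptor nearest to TLR3 in level, at 3.51 ± 0.146 RPKM.

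EIF2AK2 (ENSG00000055332, chromosome 2, 37099210 to 37157065, minus strand), which encodes the RNA-activated kinase PKR, had 6269, 5169 and 4600 counts, or 129, 85.1 and 98.3 CPM. Library 1 was the highest by a wide margin, opposite to TLR3 and the RIG-I-like receptors DDX58 and IFIH1. At 9.69 ± 2.10 RPKM it took the fourth place among the 10 genes in library 1 and a lower place, below IRF3, in libraries 2 and 3. Of the 4 kinases that phosphorylate eIF2alpha, EIF2AK1, which responds to low haem and mitochondrial stress, was the highest at 21.7 ± 1.83 RPKM. EIF2AK4, the kinase for amino acid shortage, stood at 9.83 ± 0.840 RPKM, and EIF2AK3, the kinase PERK of the endoplasmic reticulum, at 3.75 ± 0.292 RPKM.

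EIF2AK2 was 2.27-fold below EIF2AK1 (log2 ratio -1.18 ± 0.19) and 2.55-fold above EIF2AK3 (1.35 ± 0.42), each in 3 of 3 libraries. With the union of exons EIF2AK2 and EIF2AK4 could not be ordered: their log2 ratio was 0.44 in library 1, -0.38 in library 2 and -0.18 in library 3, with a mean of -0.04. The mean was -0.28 without library 1, 0.13 without library 2 and 0.03 without library 3. With the longest or the principal transcript it was -1.06 (exact sign-flip p = 0.25), with EIF2AK2 lower in 3 of 3 libraries. ADAR, the enzyme that edits adenosine in RNA duplexes and so keeps the cell's own RNA from activating these sensors, stood at 27.5 ± 1.53 RPKM. EIF2AK2 was 2.88-fold below ADAR (log2 ratio -1.53 ± 0.39, lower in 3 of 3 libraries). The antisense genes AC007899.1 and GPATCH11 overlap 4.05% of the exon length of EIF2AK2, and the strand setting of the counting is not given in the sources used here.

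Both adaptors were well expressed. MAVS (ENSG00000088888, chromosome 20, 3846799 to 3876123, plus strand) had 7470, 10061 and 7760 counts, or 154, 166 and 166 CPM, the most counts of the 10 genes. It has 11771 bases of exon, so per unit of length it stood at 13.7 ± 0.581 RPKM, level with DDX58 (1.05-fold, libraries overlapping). TMEM173 (ENSG00000184584, chromosome 5, 139475534 to 139482935, minus strand), which encodes STING, had 4473, 6337 and 4535 counts, or 92.2, 104 and 96.9 CPM. With 3850 bases of exon it reached the highest level of the 10 genes, and its libraries lay between 23.9 and 27.1 RPKM, above every library of the next gene, TBK1.

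Per unit of length MAVS was lower than TMEM173 in 3 of 3 libraries (log2 ratio -0.89 ± 0.06), and in raw counts it was higher (0.73), so the order of the adaptors depended on the length correction. MAVS and TICAM1, the adaptor of TLR3, differed 1.12-fold (0.16 ± 0.25), with MAVS higher in libraries 2 and 3 and lower in library 1. Without length the log2 ratio was 2.30, with MAVS higher in 3 of 3 libraries. CGAS, the enzyme that makes the ligand of STING, had 6, 9 and 6 counts, or 0.0321 ± 0.00314 RPKM, and was not detected. TMEM173 exceeded CGAS 738-fold (log2 ratio 9.53 ± 0.03, higher in 3 of 3 libraries), the widest of the 14 pair ratios, and the ratio rests on fewer than 10 counts of CGAS in each library. It was 8.84 with a pseudocount of 5 counts and 10.26 with the principal transcript.

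TBK1 (ENSG00000183735, chromosome 12, 64451880 to 64502108, plus strand), the kinase that the adaptors recruit, had 3958, 4436 and 3384 counts, or 81.5, 73.0 and 72.3 CPM. Library 1 was the high one, as for EIF2AK2. TBK1 stood at 15.9 ± 1.08 RPKM, 2.71-fold above its relative IKBKE at 5.91 ± 0.910 RPKM (log2 ratio 1.44 ± 0.33, higher in 3 of 3 libraries). In library 1 TBK1 was high and IKBKE low, and the log2 ratio was 1.82 there against 1.24 and 1.26 in libraries 2 and 3. An antisense gene, AC135279.3, overlaps 14.7% of the exon length of TBK1.

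IRF3 (ENSG00000126456, chromosome 19, 49659569 to 49665875, minus strand), the factor present before infection that TBK1 activates first, had 1665, 2212 and 1709 counts, or 34.3, 36.4 and 36.5 CPM. It was the steadiest of the 10 genes, with a ratio of highest to lowest CPM of 1.06. BCL2L12 on the opposite strand overlaps 19.3% of its exon length. IRF7 (ENSG00000185507, chromosome 11, 612553 to 615999, minus strand), the factor that amplifies the interferon response, had 230, 471 and 288 counts, or 4.74, 7.75 and 6.16 CPM. It had the lowest mean CPM of the 10 genes and the widest spread, with its highest CPM 1.64 times its lowest. IRF3 exceeded IRF7 4.06-fold per unit of length (log2 ratio 2.02 ± 0.31), by 2.32 in library 1, 1.70 in library 2 and 2.04 in library 3.

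**Figure D3:**
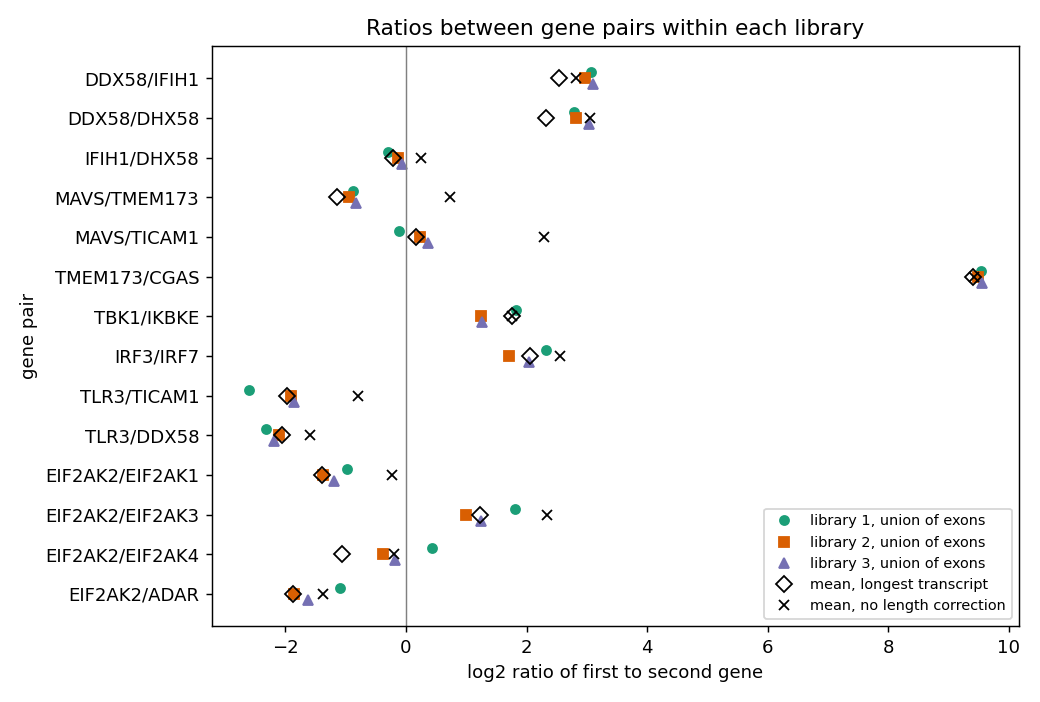
Log2 ratio of the first to the second gene of 14 pairs, per library with the union of exons (coloured points), and as means with the longest transcript (diamonds) and without length correction (crosses). MAVS/TMEM173 and IFIH1/DHX58 change sign without length, while the points of EIF2AK2/EIF2AK4 lie on both sides of 0.

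In order of level, the 10 genes stood as TMEM173, TBK1, MAVS, DDX58, EIF2AK2, IRF3, TLR3, IRF7, DHX58 and IFIH1. Of the 9 steps between neighbours, 3 separated genes whose libraries did not overlap: TMEM173 above TBK1 (log2 ratio 0.68), TBK1 above MAVS (0.21) and IRF3 above TLR3 (1.74). Without length, TBK1 to MAVS turned to -1.10, while TMEM173 to TBK1 was 0.37 and IRF3 to TLR3 was 0.91. In the other 6 steps the libraries of the neighbours overlapped, with log2 ratios from 0.02 for EIF2AK2 over IRF3 to 0.45 for DDX58 over EIF2AK2. Both of these orders also depended on length: DDX58 to EIF2AK2 was -0.87 without length, and EIF2AK2 to IRF3 was -0.26 with the longest transcript. In 4 of these 6 the upper gene was nevertheless higher in 3 of 3 libraries: MAVS over DDX58 (0.07 ± 0.07), TLR3 over IRF7 (0.28 ± 0.16), IRF7 over DHX58 (0.39 ± 0.28) and DHX58 over IFIH1 (0.16 ± 0.12). TLR3 kept the seventh place, IRF7 the eighth, DHX58 the ninth and IFIH1 the tenth in each of the 3 libraries. They also kept these places with the longest transcript or the longest principal transcript as length. In CPM, without length, TLR3 kept its place, but IFIH1 (8.11) stood above DHX58 (6.82), and IRF7 (6.22) was the lowest. With the principal transcript IRF3 stood at 20.5 RPKM as the third gene and TMEM173 at 55.2 RPKM, because their principal transcripts, at 1741 and 1771 bases, are much shorter than all their exons together.

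Promoter windows, from 250 bases before to 50 after the RefSeq start on GRCh38.p14, were at hand for 6 of the 10 genes: DDX58, IFIH1, TLR3, EIF2AK2, MAVS and TBK1. Entries for DHX58, TMEM173, IRF3 and IRF7 were not used here. The core of the interferon-stimulated response element, searched on both strands as GAAA, any 2 bases and GAAA again, occurred in 3 of the 6 (EIF2AK2, IFIH1 and TLR3) and in 3.57% of 35116 windows of the same length. The stretches around these matches are shown because interferon is known to act on such genes through an element with this core. Whether the matches act in this way was not tested. The match is in capitals, and the gene's strand is read 5′ to 3′. DDX58 had no such match, and a shorter motif, AANNGAAA on both strands, chosen after the windows had been read, marks its stretch. That motif is the end of the longer one and so lies in every longer match. It occurred in 4 of the 6 windows, the 3 with the longer match and that of DDX58, and in 22.8% of all windows.
EIF2AK2 (chr2:37156969-37157022, minus strand): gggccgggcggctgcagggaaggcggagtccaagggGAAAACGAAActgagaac
IFIH1 (chr2:162318688-162318741, minus strand): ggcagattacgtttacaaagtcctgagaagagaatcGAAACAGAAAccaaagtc
TLR3 (chr4:186069116-186069169, plus strand): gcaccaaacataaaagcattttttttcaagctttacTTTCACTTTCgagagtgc
DDX58 (chr9:32526383-32526434, minus strand): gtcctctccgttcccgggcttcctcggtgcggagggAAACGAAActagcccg

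Counted from the start base as 0, the match in EIF2AK2 runs from -6 to 3, that in TLR3 from -4 to 5 on the other strand, and the one shown for IFIH1 from -21 to -12. IFIH1 had a further pair of overlapping matches on the other strand, from -159 to -144. The match shown for DDX58 runs from -202 to -195. Further matches of the shorter motif in DDX58 lay on the other strand, from -143 to -136 and from -136 to -129. The NF-kB core, searched on both strands as GGG, any 5 bases and CC, occurred in 4 of the 6 windows (DDX58, IFIH1, MAVS and TBK1) and in 58.7% of all windows. MAVS and TBK1 had neither of the interferon motifs in these windows. The 3 genes with the longer match did not share a pattern over the libraries: EIF2AK2 was highest in library 1, whereas IFIH1 and TLR3 were lowest there.

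The spread of each gene over the 3 libraries was set against counting error with a chi-square test over the 16293 genes whose counts averaged 10 or more (Benjamini-Hochberg adjusted, threshold 0.05). Of the 10 genes 8 passed, beside 68.6% of all genes tested, so passing was common and not particular to them. EIF2AK2 had the smallest p, with a ratio of highest to lowest CPM of 1.52 (adjusted p = 1.58e-112). IRF7 had the widest ratio (1.64, adjusted p = 1.22e-08). TLR3 (1.35, adjusted p = 2.44e-10) and IFIH1 (1.26, adjusted p = 0.00614) also exceeded the median ratio of detected protein-coding genes, 1.19. DDX58 (adjusted p = 5.59e-10), TMEM173 (3.13e-09), TBK1 (1.00e-07) and MAVS (1.63e-06) passed too, with ratios of up to 1.18. DHX58 (1.13, adjusted p = 0.174) and IRF3 (1.06, 0.145) did not pass. IFIH1 no longer passed without library 2 (adjusted p = 0.0681), and IRF3 passed without library 3 (adjusted p = 0.0462).

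Most of this spread came with library 1. Of the 10 genes, 6 passed and were lowest in library 1, beside 33.4% of all tested genes, and 2 (EIF2AK2 and TBK1) passed and were highest there, beside 27.9%. Among the genes that passed, these were 6 and 2 of 8, beside 48.7% and 40.6% of all genes that passed. Without library 1, 3 of the 10 passed, beside 28.1% of all genes tested: EIF2AK2 (adjusted p = 3.22e-11), TMEM173 (0.00119) and IRF7 (0.0102). Libraries 2 and 3 then differed 0.865-fold for EIF2AK2, 1.076-fold for TMEM173 and 1.26-fold for IRF7 (library 2 over library 3). Where each gene was granted a further coefficient of variation of 0.05, 3 of the 10 passed, beside 32.7%: EIF2AK2 (adjusted p = 4.43e-07), IRF7 (0.000300) and TLR3 (0.00605). With 0.1 granted none of the 10 passed by the chi-square test, beside 8.49% of all genes. By that measure EIF2AK2 and IRF7 were the only genes of the 10 to pass in each of these settings except the last.

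**Figure D4:**
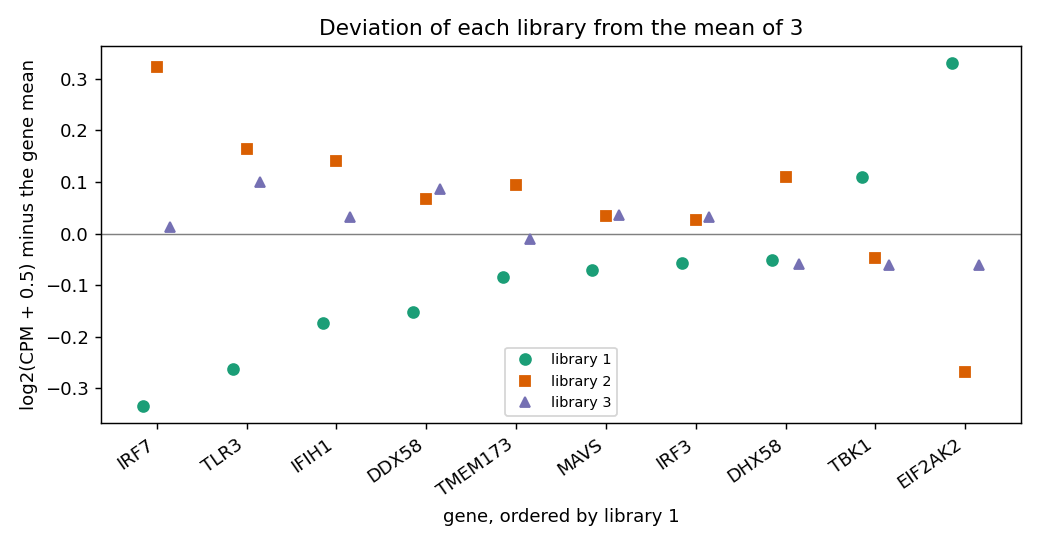
Deviation of each library from the gene's mean over 3 libraries, in log2(CPM + 0.5), for the 10 genes ordered by library 1. Library 1 is the lowest point for 7 genes, from IRF7 (-0.33) to IRF3 (-0.06), and the highest for TBK1 (0.11) and EIF2AK2 (0.33).

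Library 1 also differed with base composition. Detected protein-coding genes were ordered by the GC content of their longest transcript and divided into 5 equal groups. The median of library 1 minus the mean of libraries 2 and 3 was 0.07 (log2) in the group with the lowest GC content and -0.16 in the group with the highest (Spearman rho -0.303 across 11504 genes, which are not independent replicates). EIF2AK2 (38.7% GC) and TBK1 (39.3% GC) were in the lowest group, with 0.50 and 0.17. TLR3 (37.6% GC) and DDX58 (40.5% GC) were in the same group, with -0.39 and -0.23, opposite in sign to its median. IRF7, at 66.8% GC, was in the highest group with -0.50. IRF3 (59.0% GC) and DHX58 (58.2% GC), in that group too, were at -0.09 and -0.08. The part of base composition in these differences was not tested.

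Among the genes that passed, IRF7 spread the most, and the profiles most like it were sought among 11507 other detected protein-coding genes by the distance of their deviations over 3 libraries. The closest were PTGER1, a prostaglandin receptor gene, PC, the gene of pyruvate carboxylase, and UBOX5, at distances of 0.0058, 0.020 and 0.021 log2 units. With 3 libraries such likeness is common, and 92 genes lay within 0.1 of IRF7.

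The genes around the sensors were mostly expressed, while most interferon genes were not. All 14 listed regulators of RIG-I-like receptors were detected (median 8.25 RPKM), led by the 14-3-3 gene YWHAE (170.0 ± 8.23) and the phosphatase gene PPP1CA (54.8 ± 4.56), with the ubiquitin ligase gene RNF125 lowest (0.515 ± 0.0278). TRIM25, the ubiquitin ligase that acts on RIG-I, stood at 11.04 ± 0.323 RPKM. All 20 genes of the adaptor and kinase complexes were detected (median 6.92 RPKM), led by DDX3X (31.9 ± 2.38) and OPTN (31.4 ± 2.21), with TBKBP1, a scaffold of TBK1, lowest (2.27 ± 0.164). By the chi-square test 12 of the 14 and 17 of the 20 had a spread beyond counting error, beside 68.6% of all genes. Without library 1 these counts were 7 of the 14 and 6 of the 20, beside 28.1% of all genes.

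Receptors and sensors outside the 10 genes were detected less completely than the lists of regulators and complexes. Over all protein-coding genes 57.7% were detected, so missing genes were common and not particular to these lists. Of 18 genes of cytosolic DNA sensing and DNA clearance 13 were detected (median 7.54 RPKM), led by the Ku genes XRCC6 (119 ± 5.86) and XRCC5 (73.2 ± 3.13), with RNASEH2B lowest (0.870 ± 0.0829). IFI16, a DNA-binding protein, stood at 33.5 ± 5.95 RPKM, whereas AIM2 had 0 counts and ZBP1 a single count in library 3. TREX1 also had 0 counts, but a further gene on the same strand covers 100% of its exons, so its value is uncertain. Of 19 Toll-like receptors and partners 11 were detected, led by the chaperone HSP90B1 (311 ± 7.44) and the kinase IRAK1 (56.1 ± 2.29), with TLR1 lowest (0.363 ± 0.121). TLR2 had 0 counts and TLR5 had 0, 0 and 2. Spread beyond counting error was called for 14 of the 14 tested DNA sensing genes and 7 of the 11 tested genes of the Toll-like list, beside 68.6% of all genes, and without library 1 for 9 and 4, beside 28.1%.

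Of 20 genes that bind RNA duplexes or phosphorylate eIF2alpha, their activators and targets, 19 were detected (median 9.83 RPKM) and 18 of the 20 passed the chi-square test, beside 68.6% of all genes. Without library 1 the count was 6 of 20, beside 28.1%. The helicase gene DHX9 was the highest (44.0 ± 0.939 RPKM), and OAS2, which makes the activator of RNase L, was the lowest detected (0.848 ± 0.143). PRKRA, which encodes the activator PACT of PKR, stood at 8.30 ± 0.310 RPKM.

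Most interferon transcripts were at or near 0 counts, while most receptor and signalling genes were detected. Of 22 genes for interferons, receptors and signalling, 13 were detected, beside 57.7% of all protein-coding genes. The 13 had a median of 3.47 RPKM and were led by STAT2 (36.1 ± 2.70) and the kinase JAK1 (30.4 ± 0.860). The receptor subunit gene IL10RB was the lowest detected (0.421 ± 0.115). A further gene on the same strand covers 38.1% of the exons of IL10RB, so this place is uncertain. IFNA1, IFNA2, IFNK, IFNL1, IFNL2 and IFNL3 had 0 counts in each library, and IFNB1 had 0, 1 and 0. IFNE, an interferon gene of epithelia, was the exception with 121, 89 and 64 counts (1.20 ± 0.423 RPKM). The receptor gene IFNLR1 (89, 74 and 39 counts) and the signalling factor gene IRF9 (126, 64 and 36 counts) were below the detection limit in library 3. A further gene on the same strand covers 48.4% of the exons of IRF9, so its value is also uncertain. Of 28 effectors induced by interferon 18 were detected (median 7.20 RPKM), led by IFITM3 (59.1 ± 5.92) and IFITM2 (35.1 ± 1.81), near-identical relatives between which reads may be divided, with ISG20 lowest (0.213 ± 0.0352). RSAD2 and CMPK2 had 0 counts, CXCL10 and CXCL11 had 1 count each, XAF1 had 0, 3 and 0, and MX1, a classical marker of interferon action, had 26, 39 and 25 counts. Other classical markers were detected: IFIT3 stood at 24.3 ± 3.57, IFI6 at 20.6 ± 1.81, ISG15 at 18.8 ± 2.57 and IFIT1 at 4.66 ± 0.187 RPKM. Spread beyond counting error was called for 13 of 15 tested genes of interferon signalling and 14 of 22 tested effectors, beside 68.6% of all genes, and without library 1 for 7 and 7, beside 28.1%.

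**Figure D5:**
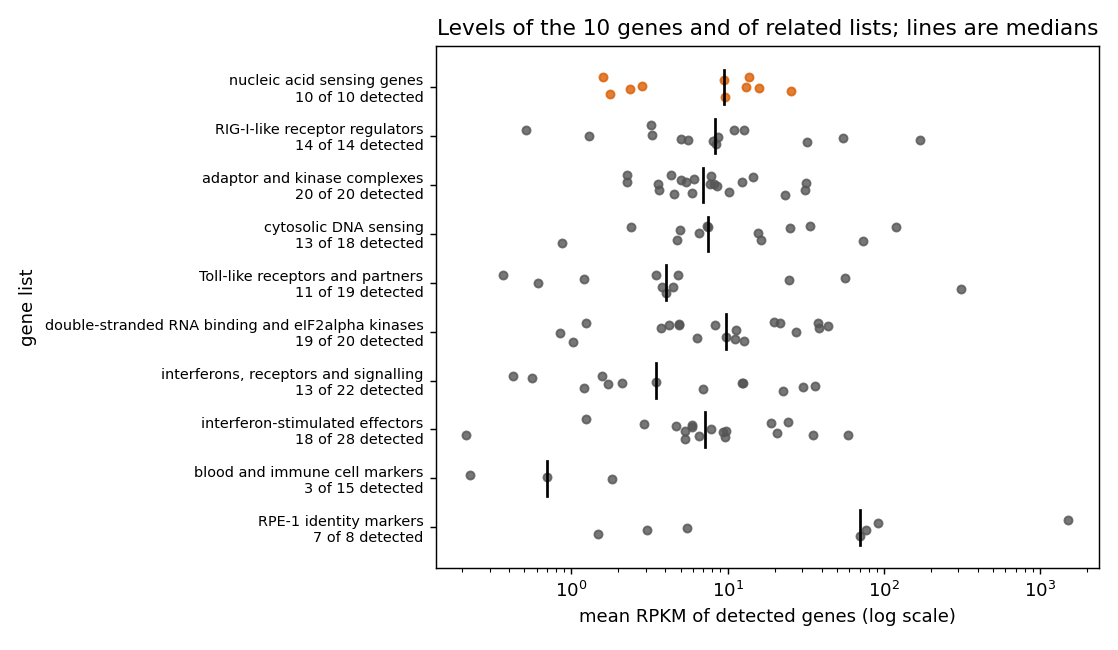
Mean RPKM (log axis) of the detected genes of each list, with a line at the median; vertical scatter within a row only separates points. The 10 nucleic acid sensing genes (orange) lie between 1.59 and 25.4 RPKM, and the 3 detected blood and immune cell markers between 0.225 and 1.82 RPKM; IFIH1 and DHX58 lie below CSF1R, the highest of these markers.

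Markers of immune cells, which carry many of these sensors in the body, were mostly below detection. Of 15 blood and immune cell markers 3 were detected, beside 57.7% of all protein-coding genes: CSF1R at 1.82 ± 0.420, ITGAX at 0.703 ± 0.0446 and PTPRC at 0.225 ± 0.0841 RPKM. CLEC4C and LILRA4 of plasmacytoid dendritic cells, CD163 and TYROBP of myeloid cells, CD3E, NKG7 and HBB had 0 counts in each library. Summed over the list, the markers stood between 2.78 and 3.27 RPKM over the 3 libraries, while the 10 sensing genes stood between 94.1 and 97.5 RPKM. These sums hold different genes, and a contribution of immune cells was not tested.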

How the data were processed

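Poly(A) RNA was sequenced from 3 libraries. The deposited values are whole-number read counts per gene; cutadapt 1.16, STAR 2.5.2a, featureCounts 1.6.2 and hg38 appear in the submitters' processing notes, without roles or settings. The sources used here give no annotation, strand setting or treatment of multiply aligned reads. A further 6 count columns in the table fit no sample given here and were left unused. All 58735 identifiers matched GENCODE release 29, from which positions and exon lengths were taken.

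Counts were scaled with TMM in edgeR 4.0.16 (R 4.3.3). RPKM used the union of exons. Pair ratios used a pseudocount of 0.5 count. With 1 group, no test between conditions was possible. Each gene's 3 counts were tested by chi-square (2 degrees of freedom) against scaled library sizes. The test was first run on simulated counts. A count of 0 allows up to 3 counts; such floors cover counting error only.

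The members and lists were chosen with earlier results of these data known. The genes named were the 10 members, the genes of 14 pairs, and from each list the 2 highest, the lowest detected and those with 3 counts or fewer in total; a few genes that this rule names are not reported here. TLR4, IFI16, TRIM25, PRKRA, IFNE, IFNLR1, IRF9, MX1, IFIT1, IFIT3, IFI6, ISG15 and RPE65 were named after their values were seen. CGAS was listed under an older symbol and matched through RefSeq synonyms. The planned protein comparison was not made, since no protein table was used. Promoter windows came from RefSeq.

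Alternatives were DESeq2 1.42.0 size factors, library totals, other limits, lengths and pseudocounts, extra variation, and leaving out each library.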

Additional observations from a re-analysis of the deposited data

How the results depend on the processing

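All 10 genes were detected with a CPM limit of 0.5, with DESeq2 size factors, with library totals and without any 1 library, and 9 were with a limit of 5 (IRF7 was below it in library 1). The count of genes with spread beyond counting error was 8 with DESeq2 size factors (68.6% of all genes), 8 without a filter (48.0%) and 9 with library totals (69.3%), where IRF3 also passed (adjusted p = 0.0239, chi-square test). It was 3 with an extra coefficient of variation of 0.05 (32.7%), 0 with 0.1 (chi-square test; 8.49% of all genes) and between 3 and 9 when a replicate was left out, with 3 without library 1 (28.1%), 7 without library 2 (56.8%) and 9 without library 3 (60.7%). The median level was 11.4 RPKM with the longest transcript, 11.7 RPKM with the longest principal transcript, a setting chosen after seeing the data, and 46.3 CPM without length, because the lengths differ by construction; it stayed between 9.14 and 9.90 RPKM when a replicate was left out. Without length, the log2 ratio was 0.25 for IFIH1 to DHX58 and 0.73 for MAVS to TMEM173, and both turned. Without length, other log2 ratios kept their sign but moved: EIF2AK2 to EIF2AK1 was -0.23, EIF2AK2 to EIF2AK3 was 2.34 and TLR3 to DDX58 was -1.58. With the principal transcript MAVS to TMEM173 was -2.00 and IRF3 to IRF7 was 2.79. EIF2AK2 to EIF2AK4 was between -0.28 and 0.13 when a replicate was left out. The other settings of the 14 pairs, 94 in all, kept their direction, and 36 of 36 detection counts of the lists stayed within 1.5 times. No paired analysis was possible because only 1 group was present. Groups of 3 libraries are too small for a search for single outlying values. Depth limits the lowest genes most: IRF7, DHX58 and IFIH1 had mean counts of 329.7, 357 and 425, and their counting error alone is 5.51%, 5.29% and 4.85%.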
